A study of Mus musculus with 10 samples.

Results

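Fibroblast growth factors (FGFs) are secreted proteins that act on receptor tyrosine kinases at the cell surface, and the FGF family was followed here in mouse bladder through 10 genes. These were the receptor genes Fgfr1, Fgfr2, Fgfr3 and Fgfr4, the ligand genes Fgf1, Fgf2, Fgf7, Fgf10 and Fgf18, and Spry4, which encodes a Sprouty protein that damps the signal below the receptors. They were chosen by name from the family and its feedback, with earlier results of these data known, and were 10 of the 55536 genes counted. RNA was sequenced from bladders of C57BL/6 mice in 10 libraries, 4 of wild type animals (WT), 3 of mice lacking osteomodulin (OMD-/-) and 3 of mice lacking PRELP, a matrix protein rich in proline and arginine at its end (PRELP-/-, written PRLEP-/- in the genotype labels). OMD and PRELP are secreted small leucine-rich proteoglycans of the extracellular matrix. Both knockouts were constitutive, so the gene was missing in every cell of the body, and carried β-galactosidase in place of exons 2 and 3 of the targeted gene. Age and sex were not given for these mice, and nothing in the sources used here speaks of pooled animals or says that the libraries came from separate animals, so p-values measure only the spread between these libraries, which may be technical. The study's text gives other numbers of mice per group than the deposited labels, and the labels were followed here.

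FGF ligands bind their receptors together with heparan sulfate chains, which sit on syndecans, glypicans and perlecan. A bound receptor dimerises, phosphorylates itself and the adaptor FRS2, and activates the RAS-MAPK and PI3K routes, whose target genes include the Sprouty, Spred and Dusp inhibitors and the ETS factors Etv4 and Etv5. FGFR3 and the IIIb form of FGFR2 are typical of epithelia such as the urothelium, FGFR1 is prominent in stroma, Fgf7 and Fgf10 are made by stromal cells and act on epithelial FGFR2, and FGFR3 is a known oncogene of low-grade urothelial tumours.

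Total counts ranged from 20391437 to 46269079 per library. Levels below are reads relative to the TMM-scaled library total (CPM), and levels compared between genes are further divided by exon length (RPKM). The targeted genes were read first. Omd had 0, 1, 8 and 12 counts in WT, 0 in each OMD-/- library and 5, 7 and 7 in PRELP-/-, too few for a test. Prelp was at 266 ± 44.1 CPM (mean ± SD, n = 4) in WT, 813 ± 27.2 CPM (n = 3) in OMD-/- and 2.70 ± 1.21 CPM (n = 3) in PRELP-/-. The labels describe whole tissue and the study's text describes isolated epithelium. All 6 umbrella cell and 7 basal urothelium markers were detected in each group, as were the 9 fibroblast and 8 smooth muscle markers. The summed fibroblast markers were at 8765 to 10130 CPM in WT and 19300 to 23136 CPM in OMD-/-, and at 10405, 21357 and 20939 CPM in PRELP-/- replicates 1 to 3. The summed umbrella cell markers were at 8804 to 10461 CPM in WT, 11185 to 15246 CPM in OMD-/- and 12891 to 21760 CPM in PRELP-/-, and basal markers at 2632 to 3431, 3500 to 4745 and 3956 to 4929 CPM. The summed leukocyte markers were at 93.1 to 99.7 CPM in WT, 127 to 257 CPM in OMD-/-, where 5 of 7 passed as higher, and 89.7 to 143 CPM in PRELP-/-. Smooth muscle markers were at 310 to 1275, 388 to 821 and 235 to 250 CPM. Neat1, a nuclear noncoding RNA, was at 338 to 449 CPM in WT, 13.4 to 26.4 CPM in OMD-/- and 15.2 to 17.9 CPM in PRELP-/-, and Firre, another, at 89.9 to 111 CPM in WT and 2.48 to 4.49 CPM in the knockouts. The part of these marker and RNA differences in the members' values was not tested. Libraries of 1 group also differed from each other. Genes of the Y chromosome summed to 188 and 163 CPM in WT replicates 1 and 2 and to 0 and 0.0439 CPM in WT replicates 3 and 4. They lay between in the knockouts, at 18.4, 0.811 and 0.733 CPM in OMD-/- and 117, 19.0 and 18.7 CPM in PRELP-/-. Xist, which is made from the inactive X chromosome of female cells, was at 2.13, 5.63, 1009 and 1215 CPM in WT, 38.7, 89.4 and 76.8 CPM in OMD-/- and 0.387, 49.1 and 56.2 CPM in PRELP-/-. The sex of the knockout libraries other than PRELP-/- replicate 1 could not be read from these values, so sets of libraries with and without Y chromosome reads, used below, are not matched for sex. PRELP-/- replicate 1 stood apart, with a median chi-square over genes of 29.4 and 30.2 against the other PRELP-/- libraries, which had 1.06 between them. Values without such libraries are given where they change a result.

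Per exon length, Fgfr3 and Fgf1 RNA stood at the top of the family in WT bladder. Fgfr3 was at 17.3 ± 1.42 RPKM (n = 4) and Fgf1, a ligand for all FGF receptors, at 15.4 ± 1.52 RPKM, and their ranges overlapped (15.9 to 18.7 and 13.95 to 17.5 RPKM). Fgfr2 followed at 11.3 ± 1.74 RPKM and Fgfr1 at 7.98 ± 1.76 RPKM, again with overlapping ranges, while the highest Fgfr2 library (13.0 RPKM) stayed below the lowest Fgf1 library. This order depends on the summed length of all annotated exons, 10328 bases for Fgfr2 and 5463 for Fgf1. Before division by length, every WT library of Fgfr2 (99.1 to 135 CPM) was above every WT library of Fgf1 (76.2 to 95.7 CPM). A lower tier held Fgf7, Fgf2 and Spry4 at 1.56 ± 0.479, 1.47 ± 0.239 and 0.951 ± 0.466 RPKM, none separated from its neighbour. Fgfr4 was near the limit of counting at 0.0974 ± 0.0485 RPKM. Fgf10 had 13 reads and Fgf18 had 10 reads over all 10 libraries, with at most 4 and 5 in any library, against a floor of 3 counts per library that covers counting error only. Neither reached the filter on low counts, and a difference between groups was not detectable at this depth. The other 8 members were tested.

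**Figure D1:**
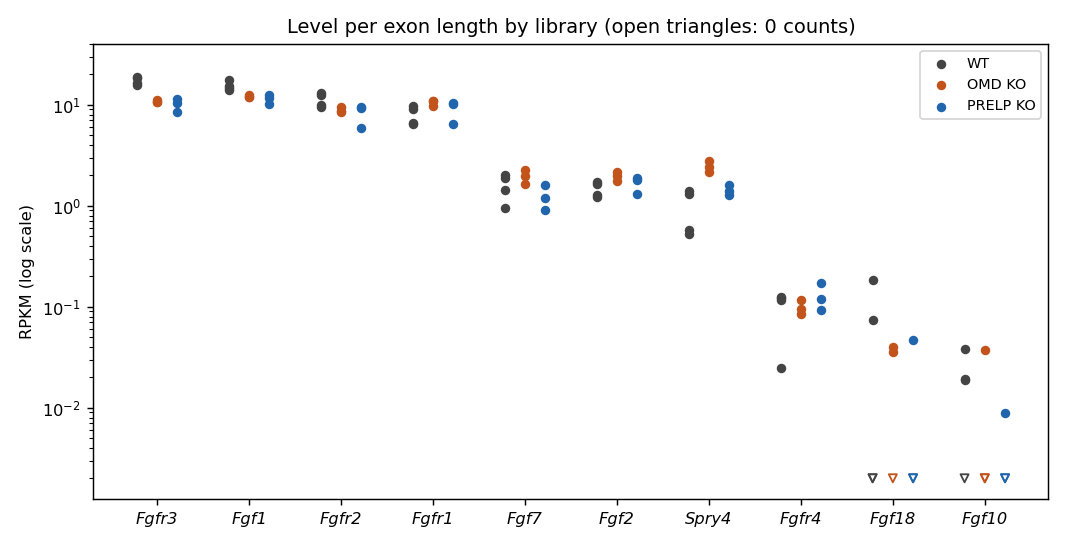
RPKM of the 10 genes in each library on a log axis, ordered by level, with WT in grey, OMD-/- in orange and PRELP-/- in blue. Filled points are libraries with counts, and open triangles below them mark libraries with 0 counts. Fgfr3, Fgf1, Fgfr2 and Fgfr1 lie about 1 order of magnitude above Fgf7, Fgf2 and Spry4, and Fgf18 and Fgf10 are at 0 in several libraries.

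Fgfr3 was lower in both knockouts and was the member that passed the test in both. Fgfr3 (ENSMUSG00000054252, GRCm38 chromosome 5, 33721674 to 33737068, + strand) was at 131, 134, 117 and 114 CPM in the WT libraries. It was at 80.4, 76.4 and 76.5 CPM in OMD-/- and at 61.4, 82.2 and 75.3 CPM in PRELP-/-. All 6 knockout libraries sat under the lowest WT library, and the 2 knockouts overlapped each other. Against WT, Fgfr3 was 1.62-fold lower in OMD-/- (log2 fold change -0.69 with an SE of 0.080, adjusted p = 0.000198). Here and below this is the two-sided quasi-likelihood test of edgeR, adjusted over all tested genes by the Benjamini-Hochberg method. In PRELP-/- it was 1.73-fold lower in the same edgeR test (log2 fold change -0.79 with an SE of 0.15, adjusted p = 0.0162). In these bulk samples fewer Fgfr3-expressing cells and less Fgfr3 RNA per cell cannot be told apart. The OMD-/- difference passed in 17 of 17 other settings, with log2 fold changes from -0.76 to -0.61. The PRELP-/- difference kept its direction in 16 of 16 settings and passed in 10. It missed the threshold without WT replicate 1 (adjusted p = 0.0516), WT replicate 2 (0.0536) or PRELP-/- replicate 3 (0.0589). It also missed it among Y-positive libraries alone (0.128), with replicate number as a block (0.156) and with close library pairs summed (0.458). Without PRELP-/- replicate 1 it was -0.67 with an adjusted p of 0.00225. All these adjusted p-values are from edgeR.

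The start of Fgfr3 is shown because this receptor was called in both knockouts. RefSeq promoter windows (build GRCm38.p6, 250 bases before to 50 after an annotated start) were given for 7 of the 10 members, and Fgfr3 has 2 of them, both on the + strand, printed 5′ to 3′ with GC boxes (GGGCGG or CCGCCC, the same motif on either strand) in capitals.
Fgfr3 window 1, chr5:33721474-33721773: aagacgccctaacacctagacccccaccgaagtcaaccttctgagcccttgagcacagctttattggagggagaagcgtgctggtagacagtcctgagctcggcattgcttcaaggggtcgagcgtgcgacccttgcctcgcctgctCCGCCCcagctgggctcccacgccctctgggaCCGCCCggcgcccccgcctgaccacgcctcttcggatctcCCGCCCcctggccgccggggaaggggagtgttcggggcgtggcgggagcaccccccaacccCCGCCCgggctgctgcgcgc
Fgfr3 window 2, chr5:33722056-33722355: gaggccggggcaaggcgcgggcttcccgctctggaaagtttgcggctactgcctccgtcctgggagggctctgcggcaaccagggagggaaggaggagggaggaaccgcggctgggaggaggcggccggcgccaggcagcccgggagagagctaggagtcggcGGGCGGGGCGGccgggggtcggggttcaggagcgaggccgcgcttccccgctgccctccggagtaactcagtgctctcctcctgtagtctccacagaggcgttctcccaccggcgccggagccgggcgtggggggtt
The windows hold 4 and 2 GC boxes, those of the second sharing 1 base, in sequence of 69.7% and 73.0% G and C. A GC box was present in 35.7% of all 32851 mouse windows. The window of Fgfr2, the other receptor gene called lower in OMD-/-, holds 0 GC boxes at 43.7% G and C. These letters describe the windows and are not evidence of binding. An antisense transcript of unconfirmed status overlaps 998 exonic bases of Fgfr3 and had 35 counts over all libraries. The strand setting of the counting is not given in the sources used here, so a share of Fgfr3 reads is uncertain.

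Fgfr2 fell in OMD-/-, and was lower without passing the test in PRELP-/-. Fgfr2 (ENSMUSG00000030849, chromosome 7, 130162451 to 133123350, - strand), whose epithelial form is the receptor for FGF7 and FGF10, was at 135, 129, 103 and 99.1 CPM in WT. It was at 88.6, 89.2 and 99.0 CPM in OMD-/- and at 61.5, 95.7 and 97.5 CPM in PRELP-/-. The highest knockout library reached to just under the lowest WT library, so the separation was narrow. The log2 fold change was -0.36 in OMD-/- (SE of 0.11, edgeR adjusted p = 0.0360) and -0.48 in PRELP-/- (SE of 0.20, edgeR adjusted p = 0.167). The OMD-/- call passed in 8 of 17 other settings and in 2 of the 7 that left out a library, namely those without WT replicate 3 or 4, with edgeR adjusted p-values up to 0.130 in the others. Among Y-negative libraries alone, the difference in OMD-/- was -0.13 (edgeR adjusted p = 0.131). Among Y-positive libraries alone, with OMD-/- replicate 1 as the only knockout library, it was -0.61. The annotated Fgfr2 gene spans 2960900 bases and shares 314 exonic bases with Ctbp2 on the same strand, so a small part of its reads is uncertain. Whether the epithelial form of Fgfr2 moved was not measured, because counts were made per gene.

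Fgfr1, the receptor prominent in stroma, did not pass in either knockout by the edgeR test. Fgfr1 (ENSMUSG00000031565, chromosome 8, 25513654 to 25575718, + strand) was at 90.7, 96.7, 63.4 and 64.6 CPM in WT. It was at 95.9, 108 and 107 CPM in OMD-/- and at 64.2, 103 and 102 CPM in PRELP-/-. The WT libraries fell into a high pair, replicates 1 and 2, which carried Y chromosome reads, and a low pair, replicates 3 and 4, which did not. The pairs also differed in make-up, with summed smooth muscle markers at 327 and 310 CPM in the high pair and 1275 and 1120 CPM in the low pair, and endothelial markers at 377 and 385 against 183 and 173 CPM, so sex and make-up cannot be told apart there. OMD-/- replicate 1 lay within the WT range, and PRELP-/- replicate 1, the library with the lowest fibroblast markers of the knockouts, lay with the low WT pair. The log2 fold change was 0.38 in OMD-/- (95% interval 0.054 to 0.70, adjusted p = 0.0760, edgeR) and 0.16 in PRELP-/- (95% interval -0.36 to 0.67, adjusted p = 0.688, edgeR). It passed in 6 of 17 other settings in OMD-/-, among them DESeq2 (adjusted p = 0.0462), no filter on low counts (0.0464), the Y chromosome covariate (0.0283) and limma-voom with sample quality weights (0.00272), and in 1 of 16 in PRELP-/-, limma-voom (0.00647). The OMD-/- value depended on which WT libraries were used. It was 0.73 among Y-negative libraries alone (edgeR adjusted p = 8.58e-08), which are WT replicates 3 and 4 and OMD-/- replicates 2 and 3. Each of these is a close pair (median chi-square 1.57 and 1.13), so this p-value measures only the spread within close pairs. With close library pairs summed the OMD-/- value was 0.37 (edgeR adjusted p = 0.228). Among Y-positive libraries alone, where OMD-/- replicate 1 was the only knockout library, it was -0.0010.

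Fgfr4 stayed near the floor in all groups, at 0.345 ± 0.172 CPM (n = 4) in WT, 0.348 ± 0.0582 CPM (n = 3) in OMD-/- and 0.453 ± 0.141 CPM (n = 3) in PRELP-/-. Its log2 fold change was -0.03 in OMD-/- (95% interval -1.21 to 1.15) and 0.36 in PRELP-/- (95% interval -0.85 to 1.56), wide intervals that neither show nor exclude a change of the size seen in Fgfr3.

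**Figure D2:**
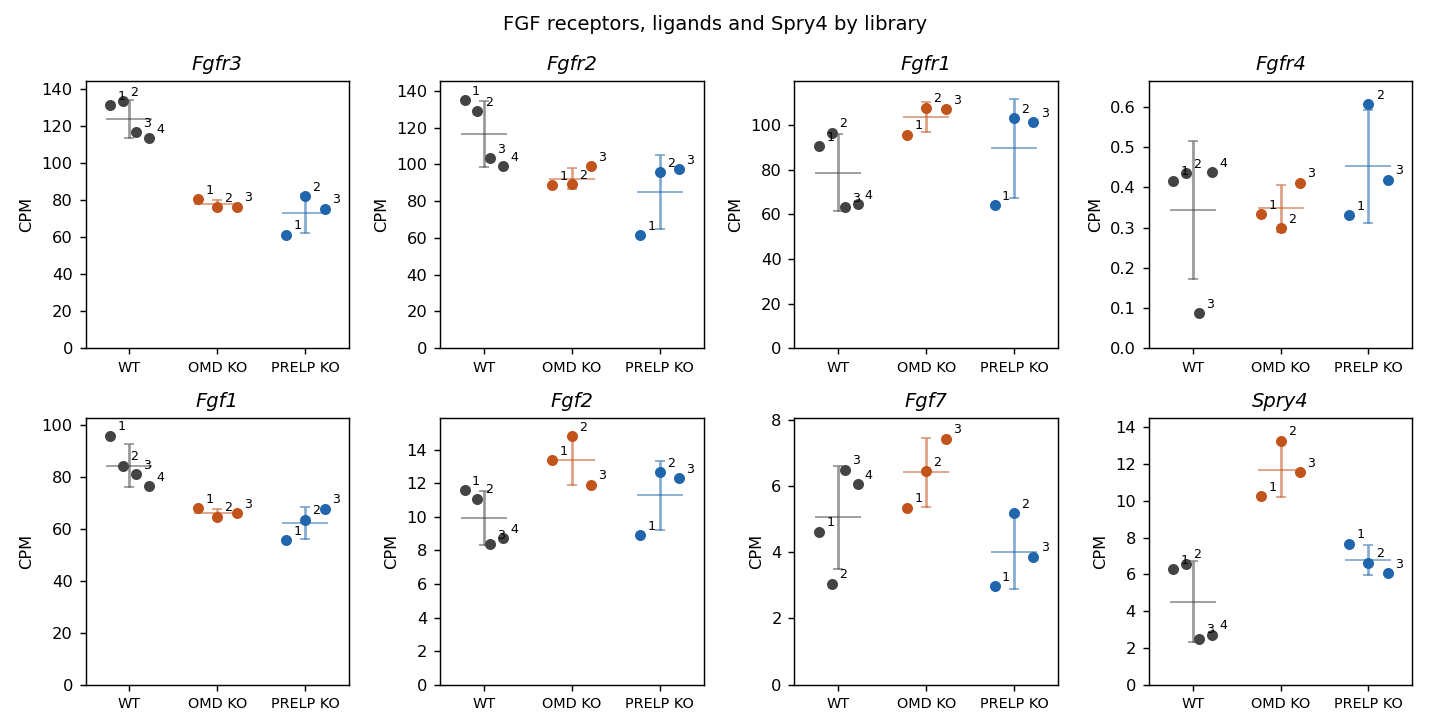
CPM of the 8 tested genes in each library, one panel per gene with its own linear axis from 0. Points are libraries numbered by replicate, horizontal lines are group means and vertical bars are 1 SD. Fgfr3, Fgfr2 and Fgf1 have every knockout library below every WT library, Spry4 is highest in OMD-/-, and the WT libraries of Fgfr1 and Spry4 split into replicates 1 and 2 above and 3 and 4 below.

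Among the ligands, Fgf1 fell in OMD-/-, and its lower values in PRELP-/- did not pass. Fgf1 (ENSMUSG00000036585, chromosome 18, 38838673 to 38929472, - strand) was at 95.7, 84.2, 80.9 and 76.2 CPM in WT. It was at 67.8, 64.5 and 65.9 CPM in OMD-/- and at 55.5, 63.4 and 67.7 CPM in PRELP-/-. All 6 knockout libraries lay below all 4 WT libraries. The fall was 1.29-fold in OMD-/- (-0.37 on the log2 scale with an SE of 0.087, edgeR adjusted p = 0.00926). The call held in 15 of 17 other settings and in 7 of 7 that left out a library. It was lost with all 3 groups in 1 fit (edgeR adjusted p = 0.0512) and with close library pairs summed (0.135). In PRELP-/- the log2 fold change was -0.46 (SE of 0.14, edgeR adjusted p = 0.0815). It passed in 4 of 16 other settings, of which 1 was without PRELP-/- replicate 1 (-0.38, edgeR adjusted p = 0.0281).

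Fgf2, a ligand stored on heparan sulfate in the matrix, had higher values in OMD-/- but did not pass. Fgf2 (ENSMUSG00000037225, chromosome 3, 37348346 to 37410108, + strand) was at 11.6, 11.1, 8.37 and 8.73 CPM in WT. It was at 13.4, 14.8 and 11.9 CPM in OMD-/-, all above WT, and at 8.89, 12.6 and 12.3 CPM in PRELP-/-, which overlapped WT. The log2 fold change was 0.40 in OMD-/- (95% interval 0.077 to 0.73, adjusted p = 0.0621, edgeR) and 0.15 in PRELP-/- (adjusted p = 0.646, edgeR). The OMD-/- difference passed in 4 of 17 other settings. Fgf2 shares 640 exonic bases with Nudt6 on the opposite strand, a gene with 434 counts in all against 2850 for Fgf2, and the strand setting of the counting is not given in the sources used here, so a share of Fgf2 reads is uncertain.

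Fgf7, the stromal ligand of epithelial FGFR2, was at 4.61, 3.05, 6.49 and 6.05 CPM in WT, 5.35, 6.45 and 7.42 CPM in OMD-/- and 2.98, 5.18 and 3.86 CPM in PRELP-/-. The knockouts differed from WT in opposite directions, by a log2 fold change of 0.32 in OMD-/- and -0.35 in PRELP-/-, and neither passed (adjusted p = 0.368 and 0.486, edgeR). Here the WT libraries without Y chromosome reads were the higher pair, the reverse of Fgfr1.

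Spry4 was the member that rose. Spry4 (ENSMUSG00000024427, chromosome 18, 38586247 to 38601415, - strand) was at 6.28, 6.58, 2.498 and 2.72 CPM in WT and at 10.3, 13.3 and 11.5 CPM in OMD-/-. It was at 7.68, 6.64 and 6.05 CPM in PRELP-/-. All OMD-/- libraries lay above all WT libraries, while PRELP-/- overlapped WT replicates 1 and 2. The log2 fold change in OMD-/- was 1.34 (SE of 0.32, 2.53-fold, edgeR adjusted p = 0.0118), and in PRELP-/- 0.55 (SE of 0.36, edgeR adjusted p = 0.361). The size in OMD-/- depended on the WT libraries, which fell into the same pairs as for Fgfr1. It was 2.23 among Y-negative libraries alone (edgeR adjusted p = 1.54e-08, again from close pairs). Among Y-positive libraries alone, with OMD-/- replicate 1 as the only knockout library, it was 0.64. The call was kept in 13 of 17 other settings. It was lost without OMD-/- replicate 2 (edgeR adjusted p = 0.0511), with no filter on low counts (0.0565), with close library pairs summed (0.0923) and among Y-positive libraries alone. In PRELP-/-, with the Y chromosome as a covariate, the log2 fold change of Spry4 was 0.05 (edgeR adjusted p = 0.889). All PRELP-/- libraries are Y-positive, so this value compares them with WT replicates 1 and 2.

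**Figure D3:**
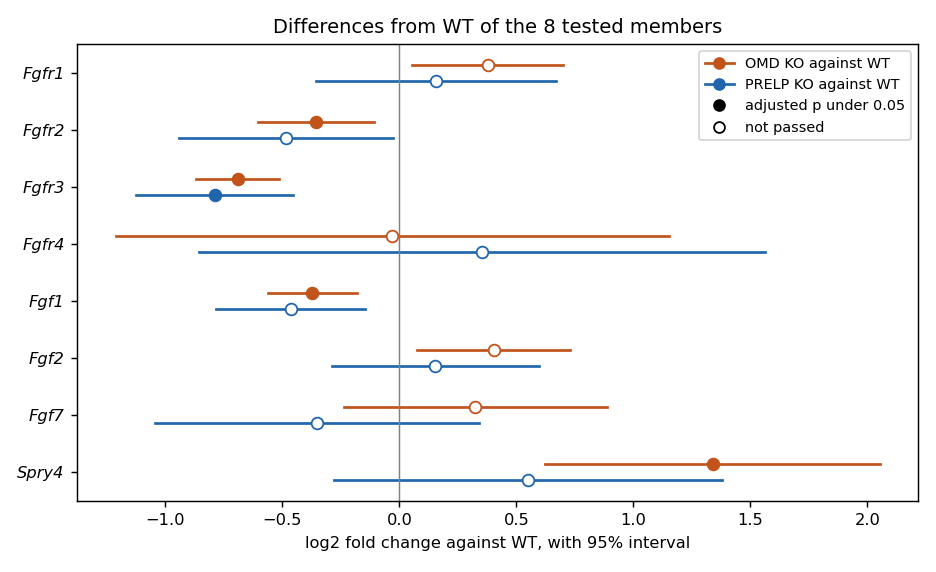
Log2 fold changes of the 8 tested genes against WT with 95% intervals, OMD-/- in orange and PRELP-/- in blue. Filled points passed an adjusted p of 0.05, open points did not. Fgfr3 passed in both comparisons, Fgfr2, Fgf1 and Spry4 in OMD-/-, and the intervals of Fgfr4 span more than 2 log2 units.

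Counted together, 4 of the 8 tested members passed in OMD-/-, 1 higher and 3 lower. Of all 16647 genes tested in that comparison 29.4% passed, 14.3% higher and 15.1% lower. The groups did not overlap for 5 of the 8 members and for 39.0% of all genes. In PRELP-/-, 1 of the 8 tested members passed, lower, beside 7.29% of 16581 genes, 1.40% higher and 5.89% lower. The groups did not overlap for 3 of the 8, beside 30.3% of all genes. The median log2 fold change of the tested members was 0.15 in OMD-/- and -0.10 in PRELP-/-, beside -0.00020 and 0.023 over all genes. Both comparisons share the WT libraries, so agreement between them is not independent.

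Fgfr3 made up less, and Fgfr1 more, of the receptor RNA in each knockout library than in each WT library, a comparison chosen after the values were seen. The ratio of Fgfr3 to Fgfr1 RPKM was 1.998, 1.91, 2.54 and 2.43 in WT. It was 1.16, 0.976 and 0.984 in OMD-/- and 1.32, 1.10 and 1.02 in PRELP-/-. No knockout library reached the lowest WT library, and the PRELP-/- replicate 1 that had low Fgfr1 also had low Fgfr3, so that its ratio lay near the others. As a share of the summed receptor RPKM, Fgfr3 was at 47.4 ± 2.504% (n = 4) in WT, 35.8 ± 1.94% (n = 3) in OMD-/- and 37.3 ± 3.03% (n = 3) in PRELP-/-. Fgfr1 was at 21.6 ± 1.96%, 34.5 ± 1.65% and 32.6 ± 1.66%. The share of Fgfr2 overlapped between groups, at 30.7 ± 0.948%, 29.4 ± 1.16% and 29.6 ± 1.45%. The ligands Fgf1 and Fgf2 showed a like pattern, where the Fgf1 to Fgf2 RPKM ratio went from 10.6 ± 1.07 in WT to 6.19 ± 0.734 in OMD-/- and 6.94 ± 0.766 in PRELP-/-. For each ratio and for the Fgfr1 and Fgfr3 shares the exact two-sided permutation test gave p = 0.0571, and 0.0667 after adjustment over 14 tests. The value of 0.0571 is the smallest that 4 against 3 libraries allow, so the design cannot reach 0.05. The test gives it whenever the groups do not overlap. These quantities were chosen after the values were seen, so it adds no support. The Fgfr3 to Fgfr1 ratio and the Fgfr1 and Fgfr3 shares also use the same values and are not separate results. These shares are within a library and do not depend on its scaling, but their size depends on the exon lengths used. The summed fibroblast, umbrella cell and basal urothelium markers given above were each likewise higher in every knockout library than in every WT library. Their part in the shares was not tested.

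**Figure D4:**
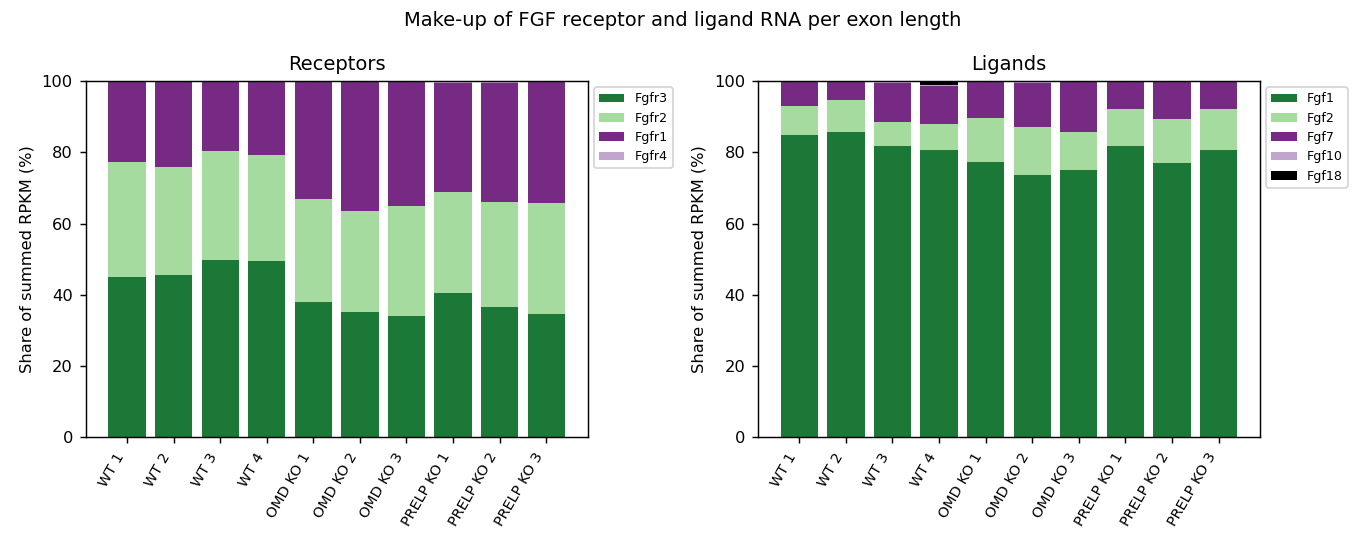
Stacked shares of summed RPKM, in percent, of the 4 receptor genes and the 5 ligand genes in each library. Fgfr3 takes 45.1 to 49.8% of receptor RNA in WT and 34.2 to 40.6% in the knockouts, with Fgfr1 taking the difference, and Fgf1 takes 73.6 to 85.6% of ligand RNA in all 10 libraries.

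Compared directly, the knockouts did not differ in any member by the edgeR test. Of 15805 genes tested, 0.00633% passed, which is Prelp alone, and 0 of 7 tested members did, with 2 at an unadjusted p under 0.05. With replicate number as a block, 43 genes passed and still no member, and DESeq2 called 0 members and limma-voom with sample quality weights 2. Spry4 was 1.72-fold lower in PRELP-/- than in OMD-/- (log2 fold change -0.78, 95% interval -1.21 to -0.35, unadjusted p = 0.00343, adjusted p = 0.690, edgeR). Fgf7 was 1.59-fold lower (log2 fold change -0.67, 95% interval -1.27 to -0.057, unadjusted p = 0.0361, adjusted p = 0.690, edgeR). These were the 2 of 7 members whose groups did not overlap, beside 14.8% of all genes, and the 2 that limma-voom called (adjusted p = 0.00113 and 0.0476). The other 5 had intervals that contained 0. For Fgfr3 the interval ran from -0.44 to 0.27, which does not reach the -0.69 by which OMD-/- differed from WT. For Fgf1 it ran from -0.40 to 0.23, which holds the corresponding -0.37.

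Across the 10 libraries the members fell into 2 sets by likeness of log2 CPM. Fgfr3 and Fgf1 had Pearson's r of 0.951, Fgfr2 and Fgf1 0.900, and Fgfr2 and Fgfr3 0.855. Fgfr1 and Fgf2 had r of 0.933, Fgf2 and Spry4 0.796, and Fgfr1 and Spry4 0.741. Between the sets r was low or negative, for example -0.19 for Fgfr1 and Fgfr3 and -0.57 for Fgfr3 and Spry4. Fgf7 followed no other member (r from -0.026 to 0.15). All these values share the same 10 libraries, and differences between groups or between libraries of 1 group can produce them. For Fgfr1 and Fgf2 alike, WT replicates 1 and 2 lay above 3 and 4, and PRELP-/- replicate 1 lay below 2 and 3. Among 14475 genes with a mean of at least 1 CPM, the 3 genes most like Fgfr3 were Gpt2 (r = 0.991), Map4k2 (0.990) and Perm1 (0.990), and those most like Fgfr2 were Brpf3 (0.983), Rai14 (0.979) and Srrm2 (0.979). Those most like Fgf1 were Snapc4 (0.982), Ccdc77 (0.981) and Prpf40b (0.978). Nearest to Fgfr1 were Arhgap28 (0.993), Abcb1a (0.991) and Sec14l1 (0.990), and nearest to Fgf2 were Ttc7 (0.991), Nol11 (0.975) and Ntrk2 (0.974). Nearest to Spry4 were Nfkb2 (0.984), the Sprouty gene Spry1 (0.980) and Arl4c (0.976). Nearest to Fgf7 were Gm12250 (0.940), Kmo (0.939) and Gm41442 (0.938).

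Of 20 co-receptors and binding proteins of FGFs 17 were tested, and in OMD-/- 9 rose and 0 fell, with a median log2 fold change of 0.53. Over all genes, as given above, 14.3% were higher and the median was -0.00020. This list and those of the following paragraphs were chosen with earlier results of these data known, so their counts are descriptive. The glypican gene Gpc6 rose from 46.3 ± 9.76 CPM in WT to 107 ± 3.83 CPM in OMD-/- (log2 fold change 1.18, adjusted p = 0.000226, edgeR), and its relatives Gpc1, Gpc3 and Gpc4 also passed. The syndecan gene Sdc3 rose by 0.83 on the log2 scale and Hspg2, which encodes perlecan, by 0.71, and Sdc2, Sdc4 and Flrt3 made up the 9. In PRELP-/- 1 of the 17, Gpc6, passed (log2 fold change 1.05, edgeR adjusted p = 0.0289), a call lost without WT replicate 2, 3 or 4 or PRELP-/- replicate 2 or 3. The call was also lost with the Y chromosome covariate, with replicate number as a block, among Y-positive libraries alone and with close library pairs summed. Without PRELP-/- replicate 1, the library with low fibroblast markers, 10 of the 17 were higher. Over all genes 3807 passed in that setting, 48.2% of them higher, beside 1209 and 19.2% with every library. Many of these proteoglycans are also made by fibroblasts, whose markers rose beside them (6 of 9 in OMD-/- and 2 of 9 in PRELP-/-). Of the umbrella cell markers 3 of 6 were higher in OMD-/- and 1 of 6 in PRELP-/-. Of the tested basal markers 2 of 6 were higher in OMD-/- and 0 of 7 in PRELP-/-. The part of cell make-up was not tested.

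Of 16 tested genes of heparan sulfate synthesis and editing, 6 were higher and 0 lower in OMD-/-, with a median log2 fold change of 0.16. They were Hpse, which encodes the heparan sulfate-cutting enzyme heparanase (log2 fold change 1.02), Sulf2, whose product removes 6-O-sulfates from the chains (0.61), the chain polymerase gene Ext2 (0.61), Extl2 (0.48), Extl3 and Hs2st1. Over all genes 14.3% were higher and 15.1% lower. In PRELP-/- none of the 16 passed in the edgeR test, with 4 at an unadjusted p under 0.05 and 1 called by DESeq2. There were 2 higher with all 3 groups in 1 fit, 4 without PRELP-/- replicate 1, and 6 higher and 1 lower in limma-voom. Over all genes 2485, 3807 and 6973 passed in these settings, 39.3%, 48.2% and 48.8% of them higher.

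Of the 25 relay genes between receptor and MAPK or PI3K, 2 were higher and 4 lower in OMD-/-, and the median log2 fold change was 0.04. These 6 calls were no larger a share than the 29.4% of all genes that passed. Among those that fell were Frs3, an FRS2-like adaptor gene, by 1.07 on the log2 scale, Crk by 0.33 and Araf by 0.32, while Crkl rose by 0.48 and Mapk3, which encodes ERK1, by 0.37. In PRELP-/- 1 of 25 passed, Frs3 (log2 fold change -0.90, adjusted p = 0.0485, edgeR), at low levels of 3.56 ± 0.535 CPM in WT and 1.95 ± 0.258 CPM in PRELP-/-. This call was lost with RLE size factors, with no filter on low counts and in 6 of the 7 fits that left out a library. It was also lost with the Y chromosome covariate, with replicate number as a block, among Y-positive libraries alone and with close library pairs summed.

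Among feedback inhibitors and targets, 8 of 15 tested genes were higher and 1 lower in OMD-/-, with a median log2 fold change of 0.37, beside 14.3% and 15.1% of all genes. In the same libraries 5 of 7 leukocyte, 6 of 9 fibroblast, 3 of 6 umbrella cell and 2 of 6 tested basal markers were higher. Their part in these counts was not tested. Egr1, an immediate early gene, was at 3.20 to 6.98 CPM in WT and 9.12 to 31.2 CPM in OMD-/- (log2 fold change 2.19, adjusted p = 0.0104, edgeR). The Sprouty gene Spry1 rose by 0.70 on the log2 scale, the ETS factor genes Etv1 and Etv5 by 0.86 and 0.62, and the cyclin gene Ccnd1 by 0.44, and Il17rd, Myc and Spred1 were the others. Spred3 fell by 0.88. The direct MAPK phosphatase gene Dusp6 and Spry2 did not pass, with log2 fold changes of 0.29 (adjusted p = 0.0538, edgeR) and 0.48 (adjusted p = 0.122, edgeR). Among Y-negative libraries alone 9 of these genes were higher and 2 lower, where 8989 of all genes passed, 51.0% of them higher. Their median log2 fold change was 0.43 there. It was 0.28 among Y-positive libraries alone, with OMD-/- replicate 1 as the only knockout library. In PRELP-/- 0 of the 15 were higher and 1 lower, Spred3 (log2 fold change -1.02, adjusted p = 0.0168, edgeR). This call was lost without WT replicate 3 or 4 or PRELP-/- replicate 2 or 3. The Y chromosome covariate, replicate number as a block, Y-positive libraries alone and close library pairs summed also lost it. In limma-voom 5 were higher and 2 lower, where 6973 of all genes passed, 48.8% of them higher. These targets also answer to other receptor tyrosine kinases, so they do not read FGF signalling alone. The OMD-/- counts of these lists fell in some settings. With all 3 groups in 1 fit, 3 co-receptors, 3 heparan sulfate genes and 5 feedback inhibitors and targets were higher, and with close library pairs summed 4, 3 and 2. In these settings 0 relay genes were higher, and 1 and 0 were lower. Over all genes 2485 and 1658 passed in them, 44.7% and 37.6% of them higher, beside 4899 in the main fit. Without WT replicate 3, OMD-/- replicate 2 or OMD-/- replicate 3, 5 feedback inhibitors and targets were higher, where 3774, 3128 and 2951 of all genes passed. In the relay list 2 genes were higher and 2 lower without OMD-/- replicate 2, and 1 and 2 without OMD-/- replicate 3.

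Ligands outside the 10 were scarce. Of 17 other FGF genes 3 had enough counts to be tested, Fgf9, Fgf11 and Fgf13, and none passed in either edgeR comparison, with 0 at an unadjusted p under 0.05 in OMD-/- and 1 in PRELP-/-. That was Fgf9, with a log2 fold change of -0.66 (adjusted p = 0.0942, edgeR).

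**Figure D5:**
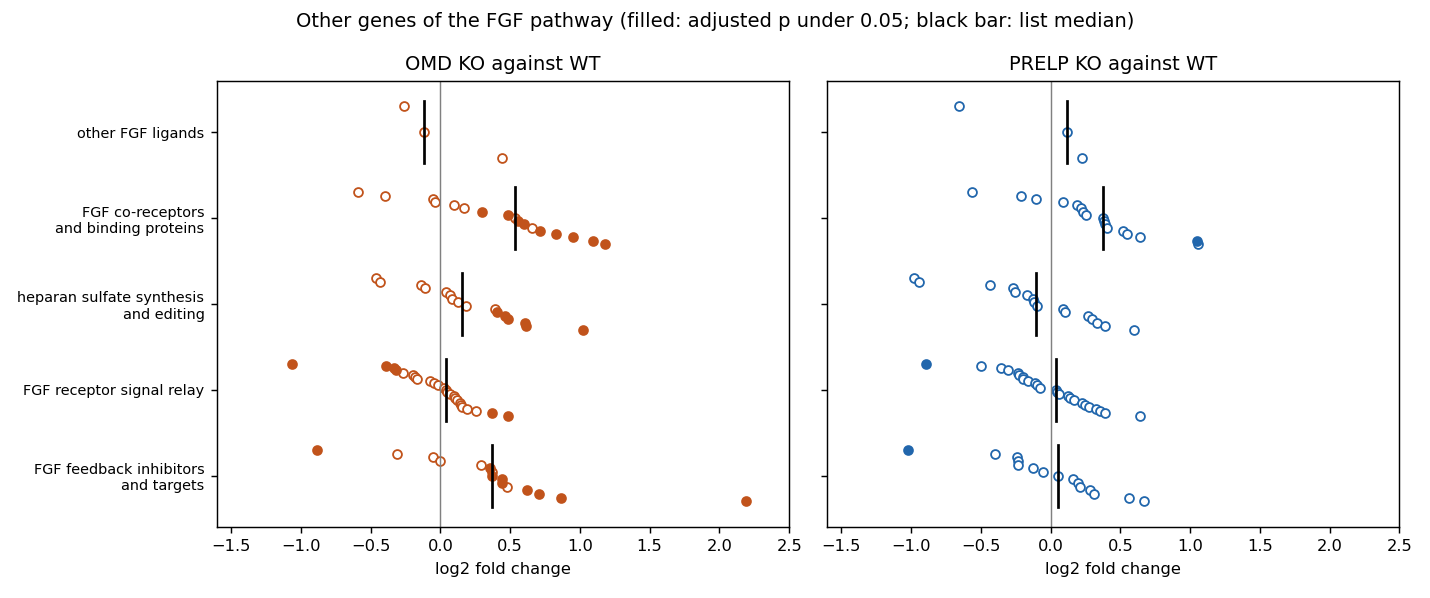
Log2 fold changes against WT of the tested genes of 5 further FGF pathway lists, OMD-/- in the left panel and PRELP-/- in the right. Each point is a gene, filled where the adjusted p was under 0.05, and black bars are list medians. Co-receptors and feedback targets lie mostly to the right of 0 in OMD-/-, with Egr1 farthest at 2.19, and few points are filled in PRELP-/-.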

How the data were processed

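The deposited files hold 1 whole-number read count per gene and library, without normalization, for 55536 genes in 10 libraries. The authors selected poly(A) RNA, marked strand with dUTP and used adaptors that carry molecular identifiers. The file headers name HISAT2 alignments, while the submitters' processing notes list STAR 2.5.2b, featureCounts and the builds GRCm38 and hg38. The annotation release, strand setting and use of the identifiers are not given in the sources used here. If identifiers were unused, PCR copies were counted. All gene identifiers matched GENCODE vM21 (GRCm38). The authors also deposited DESeq2 comparison tables (mean, fold change, p), which were not used.

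R 4.3.3 with edgeR 4.0.16 was used. Each pair of groups was fitted alone with TMM scaling, filterByExpr, robust quasi-likelihood, two-sided tests and Benjamini-Hochberg adjustment over all tested genes, with a threshold of 0.05, after the fits were tested on simulated data. RPKM used the summed exon length, and log2 CPM a prior count of 2. Alternatives were RLE factors, DESeq2 1.42.0, no filter, each library left out, replicate blocks, all groups together, the Y chromosome as covariate and limma 3.58.1 voom with sample weights. Chosen after seeing the data were libraries with over 10 CPM of Y chromosome genes (Y-positive) or the others (Y-negative) alone, and close library pairs summed.

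The members and lists were chosen with earlier results of these data known. Genes outside the 10 were named by a rule: the targeted genes, up to 4 risen and 4 fallen genes of each list with the smallest p among those called, and the 3 genes most like each member. Other called genes that complete the count of a list, and Dusp6, Spry2, Fgf9, Fgf11, Fgf13, Neat1, Firre and Xist, were named after their values were seen. The gene Anos1 was not matched. A gene of the relay list that the rule names is not reported here. Same-numbered OMD-/- and PRELP-/- libraries deviated together from their group means (r = 0.38, 0.27 and 0.24). Differently numbered libraries were not compared in this way, and replicates 2 and 3 were close in each knockout. These values therefore cannot show whether numbers pair the libraries, and the labels do not say so. The replicate block was fitted as if they did. WT replicates 3 and 4, OMD-/- replicates 2 and 3, and PRELP-/- replicates 2 and 3 were close (median chi-square over genes 1.57, 1.13 and 1.06, against 0.455 from sampling alone). They differed by more than sampling noise and were kept as separate libraries.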

Additional observations from a re-analysis of the deposited data

Results flagged for a closer look

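Of the members' levels in WT, 1 library lay far from the others. Fgfr4 was at 0.0876 CPM in WT replicate 3 and at 0.417 to 0.439 CPM in the other WT libraries. The low value rests on 2 counts, under the floor of 3. Chance alone sets 1 library apart in this way in about 1 of 20 groups.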

How the results depend on the processing

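Of the single members' values under other settings, 306 kept direction and side of the threshold, 21 lost the call, 19 gained it and 15 changed sign. The causes were not tested, except that summed pairs and fits of part of the libraries hold fewer samples. In OMD-/- against WT the count of genes passed, 4899, became 2485 with all 3 groups in 1 fit, 8989 among Y-negative libraries alone, 1658 with close pairs summed, and 2951 (without OMD-/- replicate 3) to 4850 (without WT replicate 1) with a library left out. The count of members passed, 4, became 2 with all 3 groups in 1 fit, 1 (Fgfr3) with close pairs summed, and 2 (without OMD-/- replicate 2) to 4 with a library left out. In PRELP-/- against WT the count of genes, 1209, became 2547 in DESeq2, 2485 with all groups in 1 fit, 536 with the Y chromosome covariate, 6973 in limma-voom, 119 among Y-positive libraries, 13 with pairs summed, and 475 (without PRELP-/- replicate 2) to 3807 (without PRELP-/- replicate 1). Each of the WT libraries and PRELP-/- replicate 3, left out in turn, also moved it, to 716, 608, 520, 554 and 532. The share of these genes that was higher, 19.2%, ran from 0% (replicate block and summed pairs) to 48.8% (limma-voom). The count of members, 1, became 2 in DESeq2 and with all groups in 1 fit, 5 in limma-voom, 0 among Y-positive libraries and with pairs summed, and 0 (without WT replicate 1 or 2 or PRELP-/- replicate 3) to 2 (without PRELP-/- replicate 1). Between the knockouts the count of genes, 1, became 88 in DESeq2, 5 with no filter, 3 with all groups in 1 fit, 2 with the Y chromosome covariate, 1012 in limma-voom, 0 among Y-positive libraries and with pairs summed, and 1 to 36 (without OMD-/- replicate 1), and members called went from 0 to 2 in limma-voom.

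With replicate number as a block, which leaves out WT replicate 4, 111 genes and 0 members passed in PRELP-/- against WT (Fgfr3 at -0.84, edgeR adjusted p = 0.156), 3472 genes and 4 members in OMD-/- against WT, and 43 genes and 0 members between the knockouts. For same-numbered WT and knockout libraries, r of the deviations from group means ran from -0.16 to 0.16 for PRELP-/- and -0.038 to 0.0068 for OMD-/-.

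The log2 fold changes that changed sign were, in OMD-/-, Fgfr1 among Y-positive libraries (-0.0010) and Fgfr4, with 0.067 under the Y chromosome covariate, 0.56 in limma-voom and -0.32 to 0.081 with a library left out. All PRELP-/- libraries are Y-positive, so the Y chromosome covariate and the Y-positive libraries alone both compare them with WT replicates 1 and 2. In these settings in turn, the PRELP-/- values that changed sign were Fgfr1 (-0.090 and -0.092), Fgf2 (-0.032 and -0.034) and Fgf7 (0.031 and 0.031). Between the knockouts they were Fgfr2 (0.035 in limma-voom, -0.22 to 0.061 with a library left out) and Fgfr3 (0.032 and -0.18 to 0.014). At these depths Fgf10 and Fgf18, with at most 5 counts a library, and Fgfr4 allow no statement on a change.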
